A study of Rattus norvegicus with 6 samples.

Results

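Kinesins and cytoplasmic dynein are the motor proteins that carry cargo along microtubules, and their genes were examined in brain tissue of aged rats with and without manual treatment of the head. The members are all gene symbols of the 6 deposited expression tables that start with Kif, Klc or Dctn and a digit or with Dync, 55 of 30076 symbols. Of these, 54 had a row of their own in at least 1 library and 48 in all 6. Testing covered 29 members, those with their own row throughout and a mean of at least 1 FPKM, a fragment count corrected for transcript length and library size. Of the 26 others, 19 lay below that mean, and 7 shared a row with a neighbouring gene in at least 1 library.

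The animals were male F344 rats, 18 months old. The 3 manipulated rats (replicates 4, 5 and 6) had cranial osteopathic manipulation across 7 days under isoflurane at 1.5 to 3%. The 3 untreated rats (replicates 1, 2 and 3) had the anaesthesia without the manipulation, so that anaesthesia, age, sex and strain were common to both groups. Per the labels a coronal slab of 1 mm from the prefrontal cortex was taken from each rat and gave 1 library of total RNA, and no batch or pairing is named. The question was whether the treatment goes with other transcript levels in this tissue. A slab holds all its cell types, so fewer cells of a type and less RNA per cell cannot be told apart.

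Most kinesins walk toward the plus end of microtubules, which in axons points away from the cell body, while cytoplasmic dynein walks toward the minus end and brings cargo back. Kinesin-1 is a pair of heavy chains, the motors Kif5a, Kif5b or Kif5c, with a pair of light chains (Klc) that bind cargo. Dynein-1 is built on the heavy chain Dync1h1 with intermediate, light intermediate and light chains, and needs dynactin (Dctn) to move far. Neurons rely on these motors for transport along axons and dendrites, whereas another set of kinesins builds the mitotic spindle of dividing cells.

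Libraries differed in their general level. The median FPKM of the 10657 tested genes was 3.98 to 5.50 in untreated and 2.75 to 4.07 in manipulated libraries, with manipulated replicate 6 lowest. The median log2 fold change of all tested genes (manipulated minus untreated) was -0.36 as deposited, and 0.0035 after median-ratio scaling, which divides each library by its median ratio to the gene-wise mean. Changes of motor genes are therefore given on both scales. Marker lists checked the tissue, and 0 of the genes kept on any list were at 0 in all libraries. Summed FPKM of 9 cortical glutamatergic markers was 259 to 325 in untreated and 218 to 380.0 in manipulated libraries, and that of 9 general neuronal markers was 989 to 1129 and 460 to 1218. Thalamic and hypothalamic markers (12 genes) summed to 159 to 234 FPKM in untreated against 23.7 to 84.7 FPKM in manipulated libraries, striatal markers (13 genes) to 57.6 to 86.9 against 91.9 to 233 FPKM, and choroid plexus markers (9 genes) to 463 to 471 against 242 to 1250 FPKM. After scaling, cortical glutamatergic sums were 242 to 270 against 296 to 385 FPKM, and general neuronal sums 737 to 1116 against 705 to 1235 FPKM. Scaled thalamic and hypothalamic sums were 119 to 198 against 24.0 to 130 FPKM, with overlap. Scaled striatal sums were 48.5 to 69.6 against 141 to 236 FPKM, and scaled choroid plexus sums 348 to 482 against 256 to 1549 FPKM. The part of these brain regions in the motor gene values was not tested.

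Motor genes were lower in manipulated rats to the same extent as the median of all genes, and their direction was mixed once libraries were scaled. By limma, 0 of 29 tested motor genes passed an adjusted p of 0.05, where 0.357% of all tested genes did, and the smallest adjusted p of a motor gene was 0.326. On the same unscaled values a fit with weights per library called 2 motor genes, Dctn3 and Kif16b, both lower, where it called 8.82% of all tested genes. As deposited 28 of 29 were lower in manipulated rats, with a median log2 fold change of -0.36, the median of all tested genes, of which 87.0% were lower. One motor gene, Kif16b, had an unadjusted p under 0.05, where 13.6% of all tested genes did so in the lower direction. That count was 0 without untreated replicate 1, untreated replicate 3 or manipulated replicate 6, 4 without untreated replicate 2 and 3 without manipulated replicate 5. The shares of all tested genes in those fits are not given here, so these counts cannot be read as a result about motor genes. The groups did not overlap in 5 motor genes, all lower in manipulated rats (Kif16b, Kif3c, Dync1i1, Dync1i2 and Dync1li1), where 23.7% of all tested genes were separated that way, and in 0 motor genes were manipulated rats apart and higher (1.08% of all). The lowest of the 6 libraries was manipulated replicate 6 in 27 of 29 motor genes, and the highest was untreated replicate 1 in 18 and untreated replicate 3 in 9. The median FPKM of all tested genes was likewise lowest in manipulated replicate 6 (2.75) and highest in untreated replicate 1 (5.50). After scaling manipulated replicate 6 was lowest in 5 motor genes and untreated replicate 1 highest in 7.

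After median-ratio scaling most motor genes lay near 0, as most of all tested genes did. Their median log2 fold change was 0.05, with 11 lower and 18 higher, and apart from Dctn2, described below, values ran from -0.37 in Kif16b to 0.27 in Kif5c. Of 29 motor genes 28 lay within 0.5 of 0 (96.6%), against 86.0% of all tested genes, and among genes with a mean of at least 5 FPKM it was 21 of 21 motor genes against 86.1%. The 95% intervals of those 28 genes reached no lower than -0.76 and no higher than 0.77, so that each excluded a change of 1 on the log2(FPKM + 1) scale. As deposited the intervals of 12 of 29 genes did so. On the scaled values 0 motor genes passed an adjusted p of 0.05 (0.291% of all tested genes did) and 0 had an unadjusted p under 0.05 (4.4% lower and 6.7% higher over all tested genes). Scaled groups did not overlap in Kif16b and Dync1i2, lower in manipulated rats, and in Dctn5, higher. Of all tested genes 9.08% were separated downward and 10.6% upward.

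**Figure D1:**
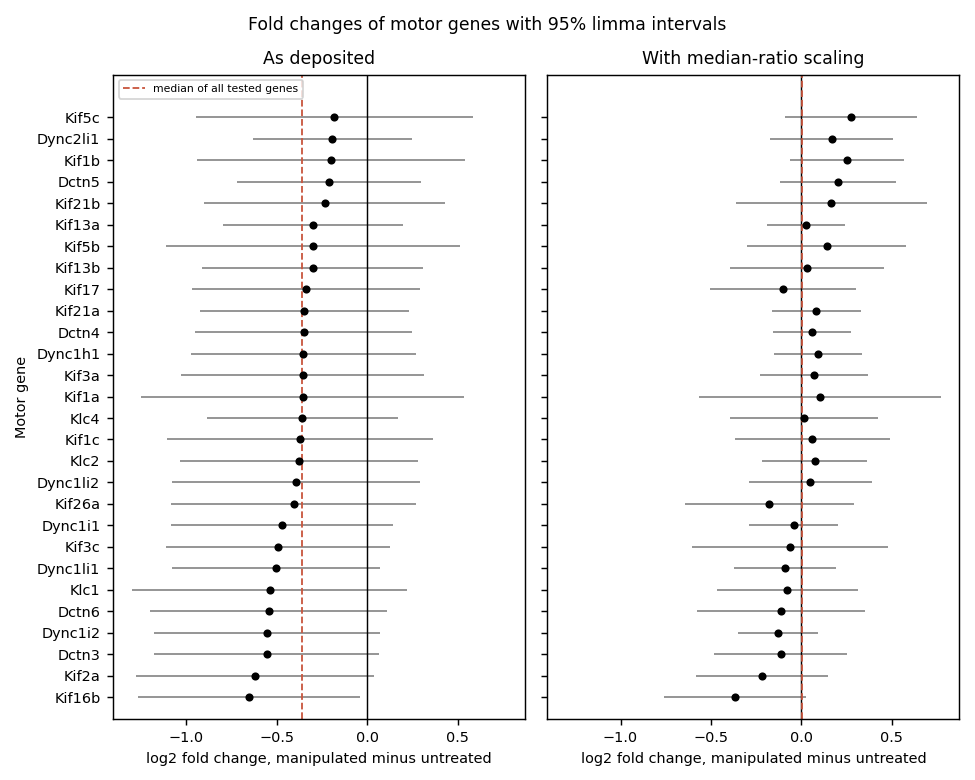
Log2 fold changes (manipulated minus untreated) of 28 tested motor genes on the x axis, as deposited (left) and after median-ratio scaling (right), with limma's 95% intervals as bars and the median of all tested genes as a dashed line. Genes lie around the median of all genes in both panels, and the scaled values run from -0.37 to 0.27.

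Klc1 and Kif5a, of kinesin-1, had the highest mean FPKM of the motor genes. Klc1, the main light chain (chromosome 6, 136330383 to 136373721, Rnor_6.0), had 142, 108 and 177 FPKM without and 103, 122 and 69.8 FPKM with manipulation, with means of 142 ± 34.5 and 98.0 ± 26.2 FPKM (SD, n = 3). The groups overlapped, manipulated replicate 5 lying above untreated replicate 2, and the log2 fold change was -0.54 ± 0.34 (SE, limma adjusted p 0.359). Klc2, a light chain also made in neurons, had 30.3, 25.4 and 30.9 FPKM against 22.6, 28.2 and 16.6 FPKM. Klc4 had 4.85, 2.97 and 4.88 FPKM against 2.59, 3.53 and 2.98 FPKM. Klc3 was listed at 0 in all 6 libraries, where a row naming Ercc2 and Mir343 covered its place at 1.80 to 3.38 FPKM. Klc1 took 79.1 to 83.2% of the summed FPKM of Klc1, Klc2 and Klc4 in untreated libraries and 78.1 to 80.3% in manipulated ones, so these make-ups overlapped.

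Of the kinesin-1 heavy chains, Kif5a and Kif5c are the neuronal motors and Kif5b is made in most cell types. Kif5c had 55.2, 37.9 and 41.4 FPKM without and 45.4, 50.1 and 25.8 FPKM with manipulation. Its log2 fold change was -0.18 (SE 0.34) as deposited and 0.27 (95% interval -0.09 to 0.64) after scaling, the highest scaled value of the 28 motor genes. Kif5b had 26.6, 16.04 and 23.8 FPKM against 23.6, 21.0 and 10.4 FPKM. In both genes 2 of the 3 manipulated libraries lay within the untreated range, with manipulated replicate 6 below it, and without that library the unscaled log2 fold changes were 0.10 for Kif5c and 0.040 for Kif5b. The ratio of Kif5c to Kif5b was 1.74 to 2.37 in untreated and 1.92 to 2.47 in manipulated libraries.

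Kif5a had its own row in 5 libraries, with 102, 84.8 and 96.4 FPKM without manipulation, and 109 and 67.0 FPKM in replicates 4 and 6 with it. In manipulated replicate 5 the assembly joined it with its neighbour Dtx3, a ubiquitin ligase gene, in a row of 117 FPKM. As deposited the groups overlapped. After scaling the own rows read 75.8, 88.4 and 77.3 FPKM in untreated and 115 and 103 FPKM in manipulated rats, and the groups lay apart. With joined rows kept, an alternative, the scaled log2 fold change was 0.48 ± 0.13 (SE, limma adjusted p 0.324), and 10.3% of all genes were separated upward in that fit, while the unscaled change was 0.01 with an adjusted p of 0.981. Kif5a took 55.4 to 61.1% of the heavy chain FPKM in untreated libraries and 61.2 and 64.9% in the 2 manipulated libraries with a row of its own.

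**Figure D2:**
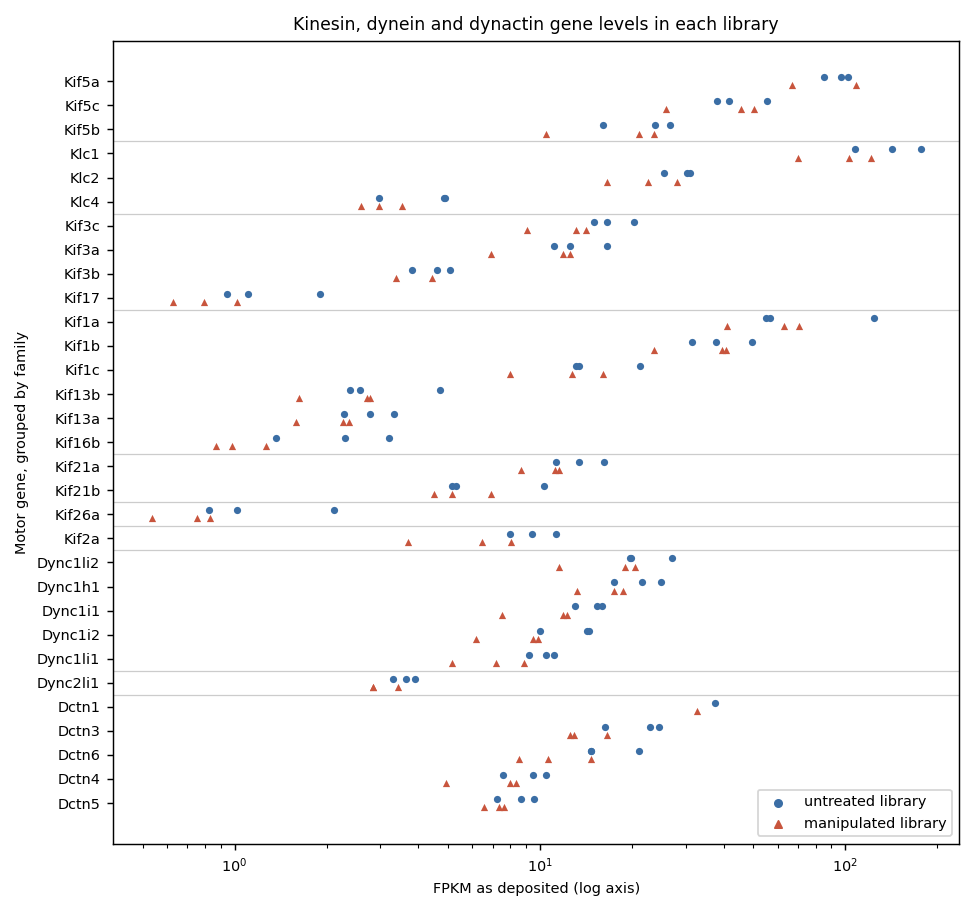
FPKM as deposited (x axis, log scale) of the tested motor genes other than Dctn2, with Kif5a, Kif3b and Dctn1 in the libraries where they had their own row, grouped by family. Circles are the 3 untreated and triangles the 3 manipulated libraries, and Klc1, at 69.8 to 177 FPKM, reached the highest level.

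The rows beside Kif5a include one of a dynactin gene. Dctn2, which encodes the dynamitin subunit, lies next to Kif5a on chromosome 7 (70556019 to 70572614, Rnor_6.0), and its span meets the end of Kif5a at 70556827. It was listed at 0 FPKM in 5 libraries and at 27.7 FPKM in manipulated replicate 5, the library in which Kif5a was joined with Dtx3. Mbd6, which overlaps the far end of Dctn2, was listed at 0 in all 6 libraries. The other dynactin genes were at several FPKM or more here, and the cause of the 0 was not tested. The log2 fold change of Dctn2 (1.61, SE 1.099, limma adjusted p 0.381) rests on manipulated replicate 5 and is no measure of its level. Without manipulated replicate 5 the log2 fold change of Dctn2 was 0. Within the low end of Kif5a, an unnamed locus of 2742 bases held 89.4 FPKM in manipulated replicate 4 and one of 2917 bases held 84.9 FPKM in manipulated replicate 5. No unnamed locus of that kind was listed in the other 4 libraries, where untreated replicate 3 had one of 163 bases at 13.1 FPKM farther in.

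**Figure D3:**
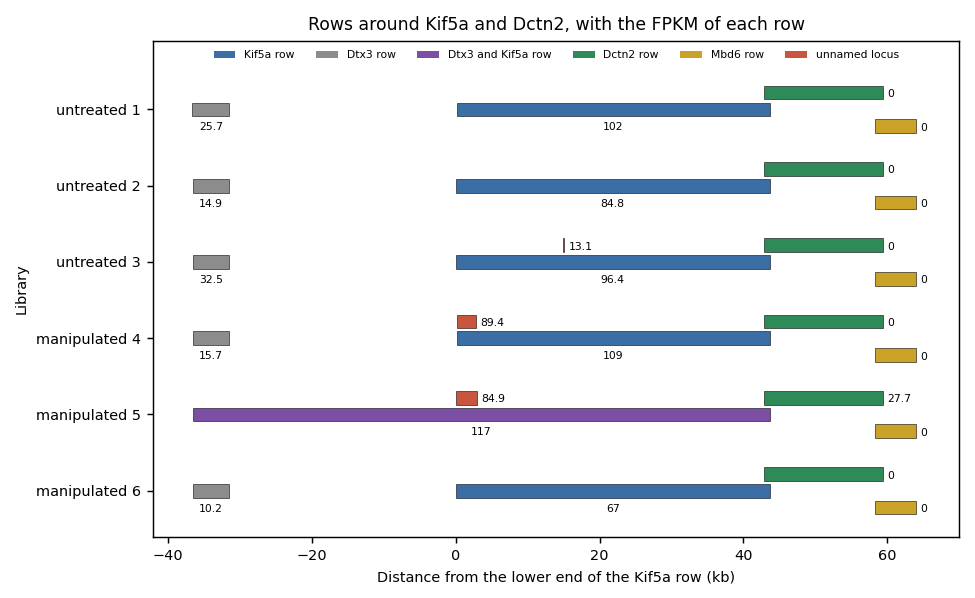
Rows of Kif5a and its neighbours in each library, drawn to scale by distance from the lower end of the Kif5a row (x axis, kb), with the FPKM of each row printed beside it. Dctn2 has a value, 27.7 FPKM, in manipulated replicate 5, where Kif5a and Dtx3 share a row at 117 FPKM.

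Kinesin-3 motors carry synaptic vesicle precursors and other membrane cargo. Kif1a, the chief neuronal member (chromosome 9), had 124, 56.8 and 54.8 FPKM without and 63.0, 70.5 and 40.9 FPKM with manipulation. Untreated replicate 1 stood high, and its interval as deposited, 121 to 127 FPKM, lay far above the other 5 libraries. The log2 fold change of Kif1a was -0.36 (SE 0.40, adjusted p 0.545), and without untreated replicate 1 it was 0.02. The ratio of Kif1a to Kif1b was 2.51 in untreated replicate 1 and 1.46 to 1.81 in the other 5 libraries. Kif1b, which carries mitochondria and synaptic vesicle precursors, had 49.4, 31.5 and 37.6 FPKM against 40.8, 39.3 and 23.6 FPKM, and its unscaled log2 fold change, -0.20, was 0.043 without manipulated replicate 6. Unnamed loci that overlap Kif1b reached 0.617, 17.5 and 18.1 FPKM in untreated and 6.36, 0.660 and 19.4 FPKM in manipulated libraries. Those that overlap Kif1a reached 25.5 FPKM in untreated replicate 1 and 35.7 FPKM in manipulated replicate 6, with none elsewhere. Their part in the levels, ratios and changes of Kif1a and Kif1b was not tested. Kif1c had 21.3, 13.1 and 13.5 FPKM against 12.7, 16.04 and 7.97 FPKM.

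Kif16b, a kinesin-3 that moves early endosomes, had the lowest log2 fold change of the tested motor genes. It lies on chromosome 3 (136657480 to 136936674 in untreated replicate 2) and had 3.197, 1.37 and 2.29 FPKM without and 0.981, 1.26 and 0.869 FPKM with manipulation. All 3 manipulated libraries lay below all 3 untreated ones, with manipulated replicate 5 close under untreated replicate 2. A row naming AABR07054026.1 overlaps Kif16b, at 2.82 and 2.83 FPKM in untreated replicates 1 and 2 and at 0 in the other libraries. The part of that row in the level and the separation of Kif16b was not tested. The log2 fold change was -0.66 (SE 0.27, 95% interval -1.27 to -0.04) with a limma adjusted p of 0.326, and over 17 alternatives the adjusted p ran from 0.0483 to 0.664. After scaling the change was -0.37 with an interval of -0.76 to 0.03. The scaled groups of Kif16b still did not overlap, as in 9.08% of all tested genes in the lower direction. The intervals of single libraries, as deposited, met between the groups, that of untreated replicate 2 reaching from 0.0901 to 2.65 FPKM. Kif13a and Kif13b, kinesin-3 motors of endosomes and other membrane cargo, had 2.28 to 3.32 and 2.39 to 4.70 FPKM in untreated and 1.59 to 2.38 and 1.62 to 2.78 FPKM in manipulated libraries. Unnamed loci that overlap Kif13b reached 8.75, 1.15 and 10.4 FPKM in untreated libraries. In manipulated replicates 4 and 6 they reached 1.58 and 0.647 FPKM, with none in replicate 5, and their part in its level was not tested.

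Kinesin-2 motors drive transport inside cilia and along axons. Kif3a, the partner of Kif3b or Kif3c, had 16.5, 11.1 and 12.6 FPKM without and 11.9, 12.5 and 6.89 FPKM with manipulation. Kif3c, a neuronal partner, had 16.6, 20.4 and 15.1 FPKM against 13.1, 14.2 and 9.06 FPKM, and its groups did not overlap. The log2 fold change of Kif3c was -0.49 (SE 0.27, adjusted p 0.337), and after scaling it was -0.06 with overlapping groups. Kif3b had 5.07, 3.82 and 4.601 FPKM without manipulation and 3.39 and 4.41 FPKM in replicates 4 and 5 with it, while in manipulated replicate 6 it shared a row with Asxl1. Kif17, a dendritic motor that carries glutamate receptors, had 1.91, 0.947 and 1.11 FPKM against 1.02, 0.797 and 0.629 FPKM, with overlap. The Kif17 row ended at 156706342 and 156706375 in untreated replicates 1 and 3 and at 156666284 to 156666531 in the other libraries. In untreated replicates 1 and 3 other named rows overlapped it, the highest at 689 and 783 FPKM. The part of this unlike extent in the values of Kif17 was not tested.

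Of the other tested kinesins, Kif21a and Kif21b, which slow microtubule growth, had 11.3 to 16.2 and 5.14 to 10.3 FPKM in untreated and 8.68 to 11.5 and 4.51 to 6.92 FPKM in manipulated libraries. Kif2a, a kinesin-13 that takes microtubules apart, had 11.2, 7.99 and 9.45 FPKM against 8.01, 6.45 and 3.70 FPKM. Manipulated replicate 4 lay just above untreated replicate 2, and the log2 fold change of Kif2a was -0.62 (SE 0.29, adjusted p 0.326), or -0.22 (95% interval -0.58 to 0.14) after scaling. Kif26a, a kinesin-11 known to lack motor activity, had 2.12, 0.827 and 1.02 FPKM against 0.830, 0.754 and 0.535 FPKM.

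All 5 dynein-1 genes were tested, and 3 of them had groups that did not overlap as deposited, all lower in manipulated rats, where 23.7% of all tested genes were separated that way. Dync1h1, the heavy chain (chromosome 6, 134958743 to 135085769 in untreated replicate 1), had 24.8, 17.5 and 21.6 FPKM without and 18.7, 17.5 and 13.2 FPKM with manipulation. Its scaled log2 fold change was 0.09 with a 95% interval of -0.15 to 0.33. A row naming Hsp90aa1 and LOC103692716 and one naming RGD1305298 overlap Dync1h1. The higher of them read 119, 98.4 and 118 FPKM in untreated and 84.8, 99.1 and 49.5 FPKM in manipulated libraries, and their part in the level of Dync1h1 was not tested. Dync1i1, the neuronal intermediate chain, had 15.997, 13.0 and 15.3 FPKM against 12.3, 11.9 and 7.49 FPKM, and Dync1i2, the broadly made one, had 14.2, 10.003 and 14.4 FPKM against 9.49, 9.87 and 6.15 FPKM. For both genes every manipulated library lay below every untreated one, and the log2 fold changes were -0.47 (SE 0.27) and -0.55 (SE 0.28), with adjusted p of 0.342 and 0.331. After scaling they were -0.04 and -0.13, and the groups of Dync1i2 still did not overlap, as in 9.08% of all tested genes in the lower direction. Unnamed loci that overlap Dync1i2 reached 1.68, 70.4 and 104 FPKM in untreated and 17.8, 5.39 and 37.8 FPKM in manipulated libraries, and their part in the level, the separation and the share of Dync1i2 was not tested.

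The light intermediate chains link dynein to cargo adaptors. Dync1li1 had 10.4, 9.20 and 11.1 FPKM without and 7.16, 8.85 and 5.15 FPKM with manipulation, without overlap, a log2 fold change of -0.51 (SE 0.26, adjusted p 0.332). Dync1li2 had 27.0, 19.9 and 19.7 FPKM against 18.9, 20.4 and 11.6 FPKM, with overlap. Dync1li2 made up 64.0 to 72.2% of the FPKM of this pair in untreated and 69.2 to 72.5% in manipulated libraries. Dync1i1 made up 51.5 to 56.5% of the intermediate chain FPKM in untreated and 54.6 to 56.4% in manipulated libraries. Dync2li1, of the dynein that works in cilia, had 3.30 to 3.89 FPKM in untreated and 2.84 to 3.43 FPKM in manipulated libraries. Its heavy chain Dync2h1 shared a row with loci that carry clone names in each library except manipulated replicate 6, where it had 0.648 FPKM.

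**Figure D4:**
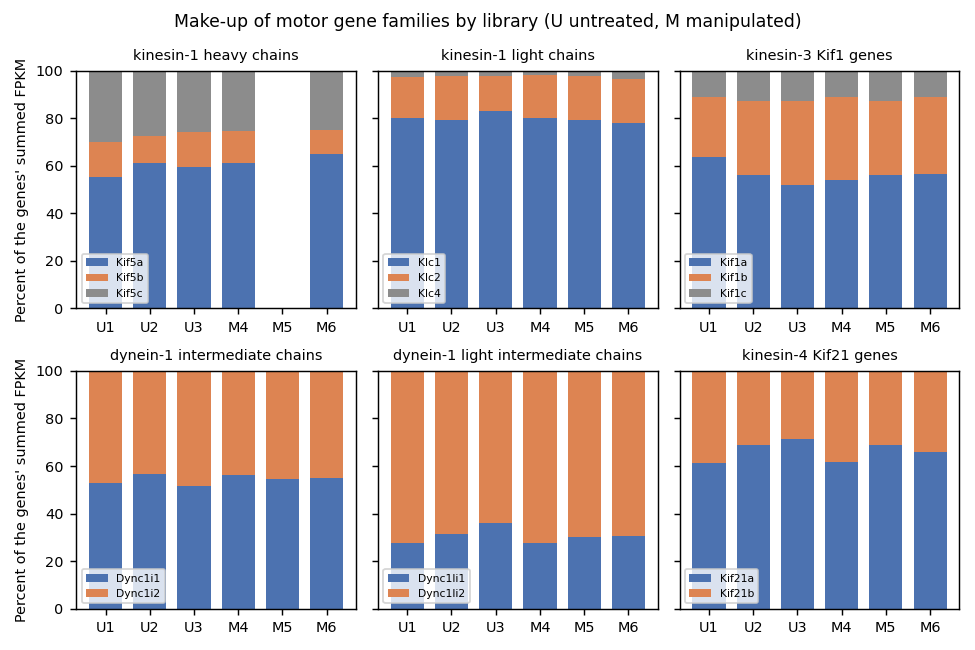
Share of each gene in the summed FPKM of its family (y axis, percent) in untreated (U1 to U3) and manipulated (M4 to M6) libraries; the heavy chain panel leaves out M5, where Kif5a had no row of its own. Klc1 takes 78.1 to 83.2% of the light chains in all 6 libraries, and Dync1li2 takes 64.0 to 72.5% of its pair.

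Tested dynactin genes other than Dctn2 ran from 4.92 to 24.6 FPKM over all libraries. Dctn3, of the shoulder of the complex, had 22.9, 16.3 and 24.6 FPKM without and 12.9, 16.6 and 12.6 FPKM with manipulation, a log2 fold change of -0.56 (SE 0.28, adjusted p 0.331, and 0.0497 to 0.980 over 18 alternatives). Dctn4, Dctn5 and Dctn6, of the pointed end, had 7.57 to 10.5, 7.25 to 9.58 and 14.7 to 21.1 FPKM in untreated and 4.92 to 8.32, 6.53 to 7.63 and 8.56 to 14.7 FPKM in manipulated libraries. For Dctn5 the scaled groups lay apart with manipulated rats higher, a log2 fold change of 0.20 with a 95% interval of -0.12 to 0.52, and 10.6% of all tested genes were separated that way. Dctn1, the large subunit that binds microtubules, had 37.3 FPKM in untreated replicate 3 and 32.6 FPKM in manipulated replicate 5, the 2 libraries with a row of its own. Counting the rows it shared with LOC500227, its log2 fold change was -0.45 with an adjusted p of 0.387, and 0.01 after scaling.

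The 11 kinesins of cell division (Kif11, Kif14, Kif15, Kif18a, Kif18b, Kif20a, Kif20b, Kif22, Kif23, Kif2c and Kif4a) stayed under 1 FPKM wherever they had a row of their own. Kif11, the spindle motor that pushes poles apart, had 0.0275 to 0.0721 FPKM in untreated and 0.0248 to 0.0472 FPKM in manipulated libraries. Kif20b had 0.0731 to 0.0935 and 0.0329 to 0.0798 FPKM, and Kif23, which bundles microtubules between dividing cells, had 0.141 and 0.146 FPKM in 2 untreated libraries and 0.128 to 0.246 FPKM in manipulated ones. Kif20a read 0.738 FPKM in untreated replicate 2 and 0.835 FPKM in manipulated replicate 5 and was listed at 0 in the other 4, where Cdc23, which overlaps it, had 4.94 to 9.13 FPKM. Kif22 was listed at 0 in untreated replicates 1 and 2 and had 0.749 FPKM in untreated replicate 3, against 0.602, 0.844 and 0.107 FPKM in manipulated rats. Kif15 was at 0 in the 5 libraries with its own row, where RGD1311745 overlaps it at 2.96 to 4.98 FPKM. Kif14, Kif18a, Kif18b, Kif2c and Kif4a lay between 0 and 0.292 FPKM in all 6 libraries. The summed FPKM of 13 markers of proliferating cells, such as Mki67 and Top2a, was 1.67 to 3.18 in untreated and 2.11 to 2.68 in manipulated libraries.

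Promoters of abundant motor genes and of cell division kinesins are set side by side because the 2 classes differed in level. Some members outside cell division, such as Kif12 and Klc3, were as low or lower. RefSeq sequences on the assembly GRCr8, 250 bases before to 50 bases after each start, matched 45 of 55 members, Kif5a not among them. Capitals mark matches on either strand of 3 motifs, the GC box (GGGCGG), the CCAAT box (CCAAT) and the CHR element (TTTGAA) known from cell cycle promoters, none of which contains another.
Kif1a (chr9:101094728-101095027, minus strand): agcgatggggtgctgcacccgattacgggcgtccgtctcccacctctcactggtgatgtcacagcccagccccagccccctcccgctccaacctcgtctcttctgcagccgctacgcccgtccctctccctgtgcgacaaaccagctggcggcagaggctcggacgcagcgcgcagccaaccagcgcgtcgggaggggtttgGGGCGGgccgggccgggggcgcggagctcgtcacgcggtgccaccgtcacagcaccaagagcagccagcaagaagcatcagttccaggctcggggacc
Kif5b (chr17:56185136-56185435, plus strand): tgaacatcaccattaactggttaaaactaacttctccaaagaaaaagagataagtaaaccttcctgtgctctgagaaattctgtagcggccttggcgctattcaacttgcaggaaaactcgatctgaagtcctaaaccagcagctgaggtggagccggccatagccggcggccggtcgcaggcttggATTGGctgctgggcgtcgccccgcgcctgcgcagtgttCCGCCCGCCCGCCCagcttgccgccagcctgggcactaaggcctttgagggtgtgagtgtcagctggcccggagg
Dync1h1 (chr6:135436228-135436527, plus strand): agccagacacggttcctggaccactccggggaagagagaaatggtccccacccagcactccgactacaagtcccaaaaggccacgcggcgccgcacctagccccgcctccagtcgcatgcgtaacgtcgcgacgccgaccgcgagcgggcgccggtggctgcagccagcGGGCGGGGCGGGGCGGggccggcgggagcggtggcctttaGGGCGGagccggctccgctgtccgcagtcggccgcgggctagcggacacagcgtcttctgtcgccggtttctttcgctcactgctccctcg
Kif20b (chr1:241840766-241841065, plus strand): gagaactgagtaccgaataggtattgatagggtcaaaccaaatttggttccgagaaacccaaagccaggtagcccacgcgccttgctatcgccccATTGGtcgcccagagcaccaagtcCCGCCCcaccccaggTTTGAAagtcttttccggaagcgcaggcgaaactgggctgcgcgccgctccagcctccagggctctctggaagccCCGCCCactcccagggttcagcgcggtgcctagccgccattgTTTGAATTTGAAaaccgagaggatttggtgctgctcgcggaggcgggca
Kif23 (chr8:71320535-71320834, minus strand): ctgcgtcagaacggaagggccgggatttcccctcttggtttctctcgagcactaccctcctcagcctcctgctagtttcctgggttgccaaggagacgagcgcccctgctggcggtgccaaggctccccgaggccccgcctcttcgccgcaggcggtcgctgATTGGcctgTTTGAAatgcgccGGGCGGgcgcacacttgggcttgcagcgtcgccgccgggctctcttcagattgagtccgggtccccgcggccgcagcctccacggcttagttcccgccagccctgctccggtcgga
Of these, Kif20b and Kif23 hold TTTGAA and Kif1a, Kif5b and Dync1h1 do not, while all 5 hold a GC box. Other cell division kinesins, such as Kif11 and Kif18a, lack TTTGAA in this window.

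Over all matched members TTTGAA was in the window of 5 of 10 cell division kinesins (Kif15, Kif20b, Kif22, Kif23 and Kif4a) and of 3 of the 35 others (Dctn1, Kif26b and Kif28p), against 18.3% of 33469 rat promoters. CCAAT was in 6 of 10 and 11 of 35, against 37.5% of all. GGGCGG was in 7 of 10 and 25 of 35, against 33.1% of all, with a median GC content of 61.8% in member promoters and 51.7% in all. A match is a description of the sequence, not a binding site.

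Kinesins of motile cilia were low, and after scaling Kif9, Kif19 and Kif27 had higher values in all 3 manipulated rats than in any untreated rat. As deposited, Kif9, of the cilium's central pair, had 0.670, 0.384 and 0.540 FPKM without and 0.897, 0.619 and 0.356 FPKM with manipulation. After scaling it had 0.499, 0.400 and 0.433 against 0.949, 0.628 and 0.545 FPKM. Kif19, which limits cilium length (chromosome 10, 103308392 to 103334466), had 0.238, 0.201 and 0.215 scaled FPKM against 0.312, 0.421 and 0.464 scaled FPKM. Kif27, a relative of Kif7, had 0.747, 0.551 and 0.604 against 0.831, 0.878 and 0.760 scaled FPKM. In these 3 of the 19 members below 1 FPKM the scaled groups did not overlap, with manipulated rats higher, where 6.19% of all genes were separated that way without the filter on low values.

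The scaled log2 fold change of Kif19 was 0.20 ± 0.05 (SE, limma adjusted p 0.349), and those of Kif9 and Kif27 were 0.24 and 0.16 with adjusted p of 0.692 and 0.726. As deposited all 3 had overlapping groups. Kif6, also found in cilia, had 0.473, 0.717 and 0.283 against 0.423, 0.247 and 0.326 scaled FPKM, with overlap. The summed scaled FPKM of 16 motile cilium markers was 11.3, 9.84 and 6.60 in the untreated and 16.4, 12.3 and 26.9 in the manipulated libraries, without overlap. As deposited the sums were 15.2, 9.45 and 8.23 against 15.5, 12.1 and 17.5 FPKM, with overlap, and choroid plexus markers, from another ciliated epithelium, are given above. Their part in the values of Kif9, Kif19 and Kif27 was not tested.

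**Figure D5:**
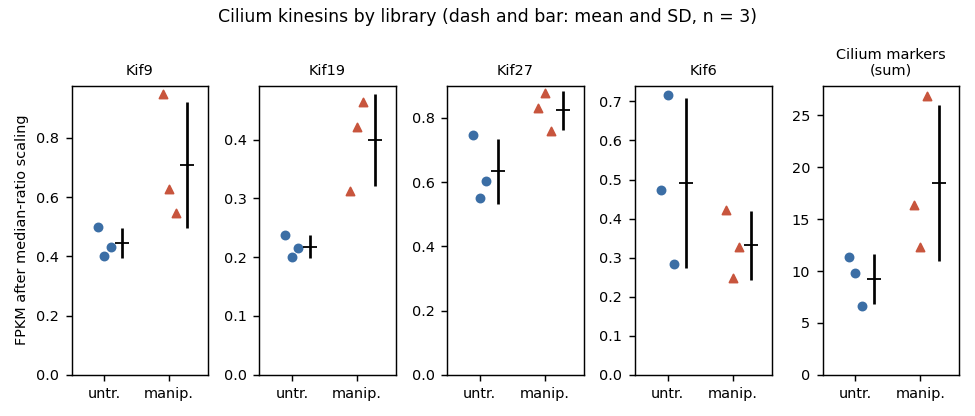
Scaled FPKM (y axes, each from 0) of Kif9, Kif19, Kif27 and Kif6 and the sum of 16 motile cilium markers in untreated (circles) and manipulated (triangles) libraries, with mean and SD (n = 3). Kif19 sits between 0.201 and 0.238 in untreated and between 0.312 and 0.464 in manipulated libraries, and Kif6 overlaps.

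Of the other low members, 2 had groups that lay apart as deposited, both lower in manipulated rats, where 14.8% of all genes were separated that way without the filter. Kif26b, a kinesin-11 of development, had 1.26, 1.33 and 0.716 FPKM without and 0.451, 0.513 and 0.375 FPKM with manipulation, a log2 fold change of -0.53 ± 0.16 (SE, limma adjusted p 0.486), and its scaled groups overlapped. Kif7, a regulator of Hedgehog signalling in the primary cilium, had 0.646, 0.587 and 0.458 FPKM against 0.401, 0.455 and 0.310 FPKM, and its scaled groups overlapped too. Kif24, which acts at the base of cilia, had 0.298 to 0.389 and 0.205 to 0.306 FPKM. Kif12 was listed at 0 in all 6 libraries and Kif2b in all but untreated replicate 1, where it had 0.00772 FPKM. Kif28p shared a row with Ahctf1 in every library, at 2.05 to 3.30 FPKM in untreated and 1.69 to 2.16 FPKM in manipulated rats.

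Genes that work with the motors were also mostly lower as deposited, as all tested genes were, and mixed after scaling. Of 82 listed gene names, among which Kif1bp, Kbp and Kifbp stand for the same gene, of dynactin's actin-like part, dynein light chains, dynein regulators, kinesin adaptors, microtubule-associated proteins, tubulins and further kinesins with kinesin-binding proteins, 54 were tested. Of these 49 were lower and 5 higher as deposited, where 87.0% of all tested genes were lower, and 0 passed limma over all genes. Their median log2 fold change was -0.39, and 0.04 after scaling. An unadjusted p under 0.05 was reached by 3 of the 54 genes, all lower, where 13.6% of all tested genes did so in that direction, and after scaling by 1 lower and 3 higher genes, where the shares of all tested genes were 4.4% and 6.7%. Kifc3, a minus-end kinesin, had 9.47, 6.69 and 9.13 FPKM without and 4.39, 4.85 and 3.68 FPKM with manipulation, a log2 fold change of -0.82 (SE 0.23, adjusted p 0.270, and 0.0246 to 0.633 over 18 alternatives), and its groups lay apart on both scales, with a scaled change of -0.42. Nin, which anchors microtubules and activates dynein, had 3.84, 1.95 and 3.17 FPKM against 1.32, 1.13 and 1.50 FPKM. Rhot1, which ties mitochondria to kinesin through Trak adaptors, had 15.2, 8.70 and 9.33 FPKM against 6.51, 6.48 and 5.18 FPKM. The adjusted p of Nin and Rhot1 were 0.309 and 0.322, and after scaling the groups of both overlapped.

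By list, the counts as deposited are to be read against the 87.0% of all tested genes that were lower, with the median of each list between -0.12 and 0.20 after scaling. In the actin-like part of dynactin, 6 of 6 genes were lower, with Capza1 and Actr10 at log2 fold changes of -0.53 and -0.57. Of 6 dynein light chain genes 5 were lower, with Dynlt1 at -0.37, while Dynlrb2, of ciliary and cytoplasmic dynein, had 1.80, 1.16 and 2.17 FPKM against 2.01, 3.48 and 2.82 FPKM. After scaling the log2 fold change of Dynlrb2 was 0.80, with an adjusted p of 0.276, and its groups did not overlap. Of 6 tested dynein regulators (15 listed) 6 were lower, among them Bicd1 at -0.61, and of 12 tested kinesin adaptors (18 listed) 12 were lower, among them Mapk8ip2 at -0.46. Of 14 tested microtubule-associated proteins and stathmins (17 listed) 13 were lower, with Stmn2 at -0.62 and Map4 at -0.63. Dclk1 was higher, at 0.21, and at 0.67 after scaling (limma adjusted p 0.181), where its groups did not overlap, as in 10.6% of all tested genes in that direction. Of 6 tested tubulin genes (12 listed) 4 were lower, with Tubb3, the neuronal beta tubulin, at -0.45. Tubb4b was higher, at 0.15, and at 0.61 after scaling (limma adjusted p 0.438). Tuba1c was at 1.23, a value that rests on a listing at 0 in untreated replicate 1. The listed tubulins Tuba1a, Tuba1b, Tubb2a, Tubb2b, Tubb4a and Tubb6 were not tested. Of the 4 tested genes of the last list 3 were lower, the minus-end kinesins Kifc3 and Kifc2 (-0.41) and the kinesin-binding protein Kifbp (-0.12), while the kinesin-2 accessory subunit Kifap3 was at 0.26.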

How the data were processed

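Each of 6 rats gave 1 total RNA library. The authors deposited FPKM per gene with the bounds of its interval. Per the submitters' processing notes, the build was Rnor_6.0 and the tools were STAR 2.7.3a and Cufflinks, whose version is not named. Strand, annotation release and read totals are not given here either, so the depth is unknown and no counting interval could be set. Symbols that named a row together with another gene (3254), had rows at distant places (144), lacked a row in some library (32) or carried a failed status (5) were left out of 30076, which kept 26641. Of these, 10657 with a mean of at least 1 FPKM were tested. Starts counted from 0 in the tables and are given from 1.

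The test was limma 3.58.1 (R 4.3.3) on log2(FPKM + 1), two-sided, with a mean-variance trend, no covariate and Benjamini-Hochberg adjustment over all tested genes at a threshold of 0.05. This scale understates changes of low genes. On simulated data of this design with 10657 genes, the share recovered was 13.4% at a log2 change of 1 and 76.4% at 2, with 7 false calls on average in 5 runs. Genes were drawn independently there, with upward changes and no shift shared by the genes of a library. The recovered share and the false calls may therefore differ in the real data. Named were motor genes past the adjusted p, the 10 with the smallest p, the 10 with the highest mean, the kinesin-1, dynein-1 and dynactin genes and, per list of partner genes, the 2 with the smallest p. The remaining members are given so that all 55 are accounted for. The partner genes Dclk1, Tubb4b, Kifbp and Kifap3, outside that rule, are given as well. The members and lists were chosen with earlier results of these data known. Tables were made in Python 3.11.15 (pandas 2.3.3 and numpy 2.4.6), figures with matplotlib 3.10.9.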

Additional observations from a re-analysis of the deposited data

How the results depend on the processing

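Settings varied in turn were the pseudocount, the low-value filter, scaling, the variance model, library weights, joined rows and the libraries kept, and those that join scaling with another choice were chosen after seeing the data. The count of motor genes called stayed at 0 in all of them except with weights per library, where it was 2 (adjusted p 0.0497 for Dctn3 and 0.0483 for Kif16b, both among the named motor genes) and where 2 partner genes, Kifc3 and Nin, also passed. Calls over all genes numbered 38, and 84 with a robust prior on the variance, 940 with weights per library, 24 with joined rows kept and 28 to 56 without 1 library. The median log2 fold change of the motor genes, -0.36, ran from -0.47 to -0.18 without 1 library. It was 0.048 with median-ratio scaling, 0.062 with joined rows kept as well, 0.0080 with no filter, 0.054 without manipulated replicate 6 and 0.063 without untreated replicate 1.

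Scaling turned the sign of 13 named genes, whose log2 fold changes became Dctn4 0.059, Dctn5 0.20, Dync1h1 0.090, Dync1li2 0.048, Kif1a 0.10, Kif1b 0.25, Kif5b 0.14, Kif5c 0.27, Klc2 0.072, Klc4 0.013, Dynlt1 0.0018, Kifc2 0.041 and Tubb3 0.010, and were the same with scaling and no filter. With scaling and joined rows kept they were Dctn4 0.062, Dctn5 0.21, Dync1h1 0.094, Dync1li2 0.052, Kif1a 0.11, Kif1b 0.25, Kif5b 0.14, Kif5c 0.28, Klc2 0.076, Klc4 0.016, Dynlt1 0.0050, Kifc2 0.045 and Tubb3 0.014. With scaling and without manipulated replicate 6 they were Dctn4 0.11, Dctn5 0.092, Dync1h1 0.056, Dync1li2 0.11, Kif1a 0.15, Kif1b 0.32, Kif5b 0.31, Kif5c 0.38, Klc2 0.087 and Kifc2 0.13, and with scaling and without untreated replicate 1 Dctn4 0.063, Dctn5 0.13, Dync1h1 0.11, Dync1li2 0.096, Kif1a 0.38, Kif1b 0.33, Kif5b 0.19, Kif5c 0.33, Klc2 0.014, Klc4 0.027, Dynlt1 0.079, Kifc2 0.050 and Tuba1c -0.085. Weights per library gave Kif1b 0.0017 and Kif5c 0.026. Unscaled fits without 1 library ran from 0.00 (without manipulated replicate 5) to 2.42 for Dctn2, from -0.56 to 0.021 (without untreated replicate 1) for Kif1a, from -0.35, -0.51 and -0.36 to 0.043, 0.040 and 0.10 (without manipulated replicate 6) for Kif1b, Kif5b and Kif5c, and from -0.44 (without untreated replicate 1) to 2.19 for Tuba1c. By construction scaling removes the shift shared by all genes. None of these values passed an adjusted p of 0.05.

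The number of motor genes with an unadjusted p under 0.05, 1 with all libraries, was 0 without untreated replicate 1, untreated replicate 3 or manipulated replicate 6, 4 without untreated replicate 2 and 3 without manipulated replicate 5. Shares of all tested genes in the fits without 1 library are not given here to set beside these numbers. No paired analysis was possible because the groups share no replicate number. Depth is unknown, and 3 rats in each group limit the test to large changes. Some deposited intervals reached 0 in spite of a clear level, such as 0 to 88.7 FPKM for Kif5c in untreated replicate 3 and 0 to 51.6 FPKM for Dync1i1 in untreated replicate 2. Overlapping genes could not be told apart without strand.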
